A study of Rattus norvegicus with 3 samples.

Results

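The cytosolic ribosomal protein genes were taken as every gene whose single symbol in the platform's probe table was Rpl or Rps followed by digits (with an a, x, y or l ending allowed), Rpsa, or Rplp0 to Rplp2. The kinases of ribosomal protein S6 were left out. The rule gave 44 of 14217 named genes, 30 of the large subunit and 14 of the small. Of these, 40 (27 large and 13 small) had a mean log2 signal over the 3 arrays at or above a floor of 7.44, the median of all non-control probe sets, and are described unless stated otherwise. Each gene was read from its brightest probe set. Of 79 canonical ribosomal protein genes listed (47 large and 32 small), 42 had a probe set with a single symbol. Another 22 were named only beside other ribosomal protein symbols, so the members cover part of the family.

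Rat brainstem RNA was hybridised to 3 expression arrays, 1 labelled Sham, 1 TBI (traumatic brain injury) and 1 Hand Acu (hand acupuncture), all collected 1 h after modelling. The design text speaks of mixed brainstem from 5 animals, which is read here as 1 pool per array. Whether the Hand Acu rats had been injured too is not in the labels, and strain, age and sex are not given in the sources used here. With 1 array per group there is no replicate error and no test, and every statement describes these 3 pools of RNA. All 4 neuron markers and all 3 oligodendrocyte markers on the array lay above the floor. Of 4 hindbrain markers, Hoxa5, Hoxb3 and Chat lay above it on average and the glycine transporter gene Slc6a5 did not. Those 3 were higher on the TBI and Hand Acu arrays than on the Sham array, by medians of 0.25 and 0.28 in log2. Hoxa5 was higher by 1.22 and 0.99. On the Sham array Hoxa5 (7.35) and Hoxb3 (7.40) read below the floor, so they passed it through the arrays where they were higher. Slc6a5, left out by the floor, was lower on both arrays, at -0.12 and -1.03. The shared direction of the 3 therefore follows in part from the filter, and its part in the results was not tested. The liver markers Apoa1, Apoh and Fgb lay below the floor, while that of albumin (Alb) was above it. The 6 cerebellum markers read here were all lower on the TBI and Hand Acu arrays than on the Sham array, by medians of -0.61 and -0.73 in log2.

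Cytosolic ribosomes join a small subunit, which holds the mRNA and checks the codon, to a large subunit, which makes the peptide bond and carries the exit tunnel of the growing protein. Each ribosome needs its structural proteins in nearly equal number, and their genes are among the most strongly and evenly expressed of any cell. Most of their mRNAs begin with a cytosine and a stretch of pyrimidines, the 5' terminal oligopyrimidine (TOP) tract, through which the kinase complex mTORC1 and the RNA-binding protein Larp1 set how well they are translated. Neurons also make ribosomal proteins in their axons and dendrites, far from where ribosomes are assembled.

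The start-site sequences are shown because this tract is known from ribosomal protein genes and the naming rule did not use it. RefSeq promoters of GRCr8, each reaching from 250 bases before to 50 bases after the annotated start, were found for 39 of the 44 members (not for Rpl23a, Rpl27, Rpl30, Rpl7 and Rps29). An uninterrupted run of at least 8 pyrimidines that began with C was looked for on the gene's own strand, within the 10 bases before and the 25 bases after the start. It was present in 21 of 39 members (53.85%), against 9.28% of all 33469 promoters of the table. By subunit it was in 15 of 26 large and 6 of 13 small members. A start with C and 4 further pyrimidines exactly at the annotated base was found in 12 of 39 members (30.77%) and in 2.63% of all promoters. Below, each sequence covers 50 bases before to 25 bases after the start, 5' to 3', with the run in capitals. Rps23 and Rpl27a have the longest runs, Rpl19 and Rpl39 are members with large differences between arrays, and Rpl5 and Rpl41 have no such run in the window.
Rps23: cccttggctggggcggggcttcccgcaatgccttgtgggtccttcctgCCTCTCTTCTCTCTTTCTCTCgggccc
Rpl27a: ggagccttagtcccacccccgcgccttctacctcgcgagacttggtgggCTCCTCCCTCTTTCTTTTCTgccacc
Rpl19: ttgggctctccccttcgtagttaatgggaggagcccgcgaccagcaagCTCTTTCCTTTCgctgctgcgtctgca
Rpl39: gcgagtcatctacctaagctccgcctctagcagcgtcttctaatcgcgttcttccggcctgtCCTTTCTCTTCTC
Rpl5: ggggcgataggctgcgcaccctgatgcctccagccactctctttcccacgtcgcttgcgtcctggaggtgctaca
Rpl41: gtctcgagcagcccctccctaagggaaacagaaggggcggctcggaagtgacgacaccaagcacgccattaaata

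These windows lie at chr2:23814467-23814541 on the plus strand for Rps23, chr1:172974523-172974597 on the plus strand for Rpl27a and chr10:83519014-83519088 on the plus strand for Rpl19. Rpl39 lies at chrX:121195872-121195946, Rpl5 at chr14:1995201-1995275 and Rpl41 at chr7:1563473-1563547, each on the minus strand. The run was 21 bases long in Rps23, 20 in Rpl27a and 12 in Rpl19. In Rpl39 the 13 bases counted reach the end of the window, and in Rpl5 the longest run, of 7, touches its upstream edge, so a run that crosses an edge is counted in part. Over the whole promoter and on either strand, CTTTCC was present in 43.59% of members and 26.40% of all promoters. On the same count CGGAAG, the core that ETS factors bind, was present in 46.15% and 16.62%, and TATAA in 17.95% and 26.22%. A match describes letters in a window and is not a mapped site.

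The first comparison, TBI minus Sham, sets the array labelled for injury against that labelled Sham. The 6 cerebellum markers also differed between these arrays, by a median of -0.61, and the part of tissue content was not tested. Most members of both subunits were slightly higher on the TBI array, with medians of a few percent. The median log2 difference was 0.05 for the large subunit (20 of 27 higher) and 0.08 for the small subunit (10 of 13 higher), and the subunit medians were -0.02 apart, large minus small. In all 30 of 40 members were higher, where 51.0% of 9241 genes above the floor were, with a median over all genes of 0.0043. In the brightest 10% of genes (1422 genes, mean log2 signal of at least 11.17), which holds 38 of the members, 62.0% of genes were higher and the median was 0.03. Quantile normalization, which gives the 3 arrays the same distribution of signals, left 22 of 40 members higher, with medians of 0.01 for the large and 0.02 for the small subunit. With it the median over all genes above the floor was 0.0043.

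Rpl39, which lines the exit tunnel, differed most. Its log2 signal was 8.85 on Sham, 9.37 on TBI and 9.23 on Hand Acu, so the Sham array was low and the TBI array was 1.43-fold above it. Rps27l, a paralog of Rps27 known as a p53 target, read 8.02, 8.33 and 8.15 in the same order, 1.24-fold higher on the TBI array. These were the dimmest members above the floor, and log2 differences between arrays are wider at low signal. For TBI minus Sham the SD over other genes was 0.26 between the floor and 9, where Rps27l lies, 0.18 between 9 and 11, where Rpl39 lies, and 0.09 at 13 and above. Rpl27, a gene mutated in some cases of Diamond-Blackfan anaemia, is bright and read 12.88, 13.18 and 13.04, so it was 1.23-fold higher on the TBI array, with the Hand Acu array between the others. Those 3 genes were the members at least 1.2-fold higher, which is 7.5% of members beside 7.68% of all genes and 3.09% of the brightest 10%. No member was 1.2-fold lower, beside 8.15% of all genes, and none passed 1.5-fold, beside 0.866% of genes higher and 0.682% lower.

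Among the other large-subunit members, Rpl13a, a protein that can leave the ribosome to silence inflammatory mRNAs in myeloid cells, was higher on the TBI array by 0.24. Rpl19, which reaches across to the small subunit in an intersubunit bridge, read 13.14, 13.36 and 13.16 on the Sham, TBI and Hand Acu arrays, so only the TBI array stood high, by 0.22 over Sham. Rpl35a, another Diamond-Blackfan anaemia gene, was higher by 0.18, Rpl41, the smallest ribosomal protein, by 0.16 and Rpl26, which also binds the p53 mRNA, by 0.14.

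The opposite direction was led by Rpl5 and Rpl23a. Rpl5 binds 5S ribosomal RNA together with Rpl11, and the free complex holds back the p53 inhibitor Mdm2. Rpl5 read 13.32 on Sham, 13.13 on TBI and 13.13 on Hand Acu, so the Sham array alone was high. Its partner Rpl11 read 12.99, 12.99 and 12.94 and differed by 0.0031 for TBI minus Sham. Rpl23a, a docking site for factors that meet the new protein at the tunnel exit, read 13.03, 12.85 and 12.83, again with the Sham array alone high. The next lowest of the large subunit, Rpl34, differed by -0.04.

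In the small subunit, Rps29, a zinc-binding protein of the head, read 14.15 on Sham, 14.31 on TBI and 14.14 on Hand Acu. Rps3, which lines the channel where mRNA enters and also acts in DNA repair, read 13.08, 13.23 and 13.03. In both genes the TBI array stood above the other two arrays, which lay close together. Rps15, near the decoding site, was higher on the TBI array by 0.13, Rps3a by 0.12, Rps24 by 0.11 and Rps16 by 0.08. Rps6, the substrate whose phosphorylation reports mTORC1 activity, differed by 0.04 and Rps23, which shapes the decoding centre, by 0.05. The lower members were Rps15a at -0.05, Rpsa, which doubles as a laminin receptor, at -0.04, and Rps9, known for its part in decoding accuracy, at -0.02.

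**Figure D1:**
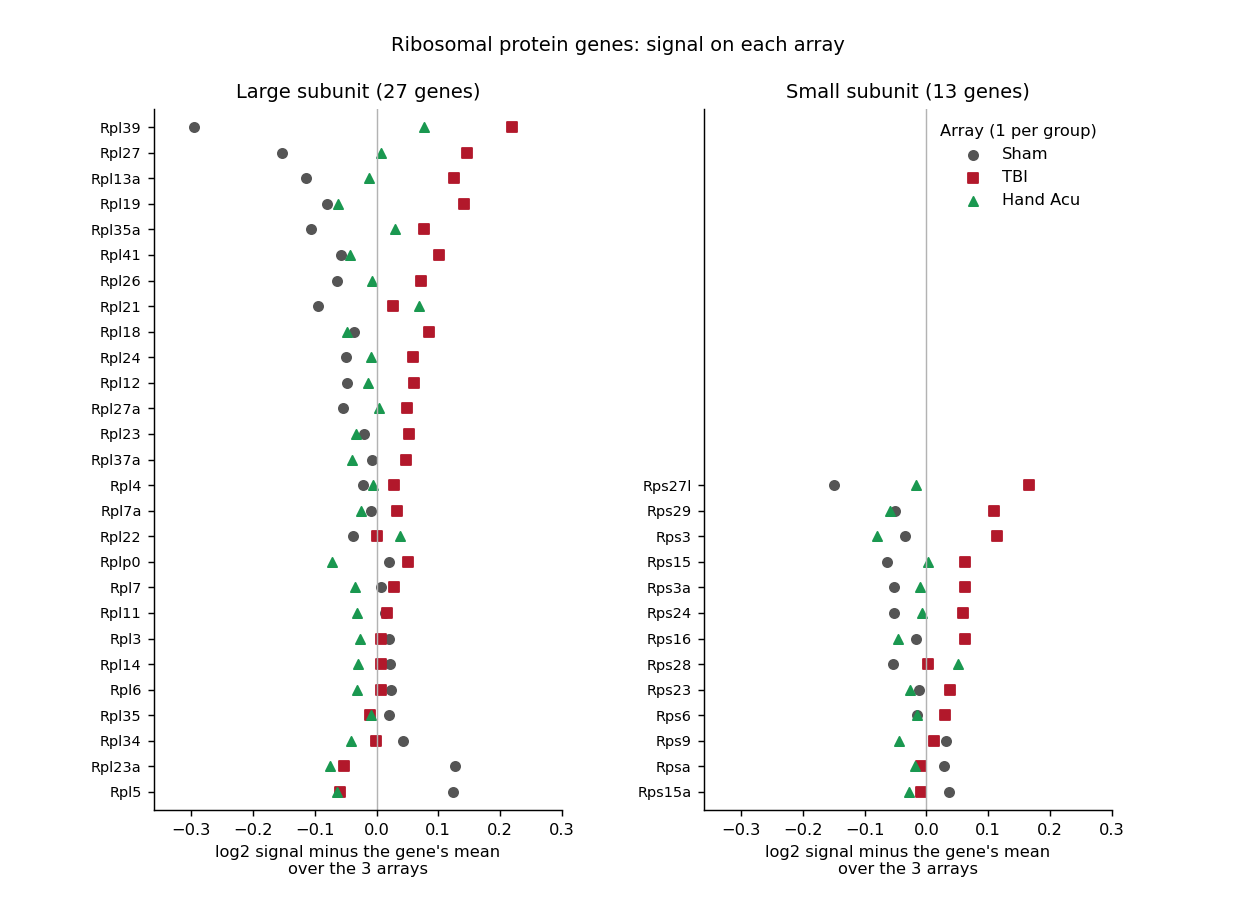
Each row is a ribosomal protein gene above the floor, ordered within its subunit by TBI minus Sham, and the points are the log2 signal on each array minus the gene's mean over the 3 arrays (1 array per group, no error bars). The TBI array is the highest of the 3 for 27 of 40 genes, while Rpl5 and Rpl23a are highest on the Sham array.

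The second comparison, Hand Acu minus TBI, sets the array labelled for acupuncture against that labelled for injury; as the labels leave the injury of the Hand Acu rats unstated, the treatments it separates are not known. Nearly all members above the floor were slightly lower on the Hand Acu array. The median log2 difference was -0.06 for the large subunit (24 of 27 lower) and -0.06 for the small subunit (12 of 13 lower), and the subunit medians were 0.0074 apart. In all 36 of 40 members were lower, beside 50.7% of all genes and 58.2% of the brightest 10%. No member was 1.2-fold lower, beside 6.49% of all genes, and none 1.2-fold higher, beside 6.38%. Quantile normalization left 30 of 40 lower, with medians of -0.02 and -0.03 in the large and small subunits. The median over all genes above the floor was then 0.0025. This comparison subtracts the TBI array that TBI minus Sham adds, so both share it, with opposite sign.

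The largest differences were those of Rpl19 at -0.20 and Rps3 at -0.20, followed by Rps27l at -0.18 and Rps29 at -0.17. Rpl41 and Rpl39 each differed by -0.14, as did Rpl27 and Rpl13a. Rplp0, the base of the stalk that recruits elongation factors and the only stalk protein with a probe set of its own, read 12.24, 12.27 and 12.15 on the Sham, TBI and Hand Acu arrays, and was lowest on the last by 0.09 from Sham. Its difference from TBI was -0.12. The 4 members not lower were Rps28 (0.05), Rpl21 (0.04), Rpl22 (0.04), which is known to bind small viral RNAs, and Rpl35 (0.0011). The smallest differences among the lower genes of the small subunit were -0.01 for Rpsa and -0.02 for Rps15a.

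Hand acupuncture against sham gave no common direction. The median was -0.01 for both the large (13 of 27 higher) and the small subunit (6 of 13 higher), with the subunits -0.0032 apart, and 19 of 40 members were higher beside 51.0% of all genes and 56.8% of the brightest 10%. Rpl39 was the only member at least 1.2-fold apart, at 0.37 higher, beside 8.16% of all genes higher and 8.39% lower by that much. Rpl21 and Rpl27 were each 0.16 higher, Rps27l 0.13, Rps28 0.11 and Rps15 0.07. Rpl23a differed by -0.20 and Rpl5 by -0.19, so their high Sham signal appears here as well, and Rplp0 by -0.09. In the small subunit the lowest were Rps9 at -0.08, Rps15a at -0.07 and Rpsa at -0.05.

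**Figure D2:**
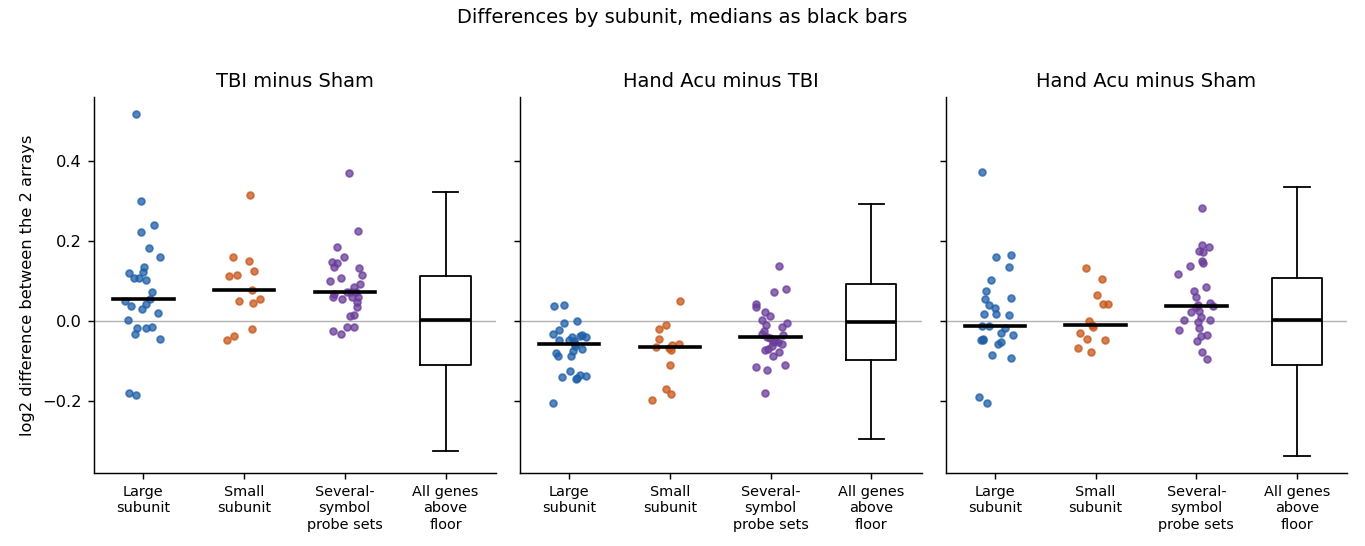
Points are log2 differences between 2 arrays for large-subunit genes, small-subunit genes and the 29 probe sets with several ribosomal protein symbols above the floor, with black bars at the medians; the box shows all 9241 genes above the floor (quartiles, whiskers at the 5th and 95th percentiles). Both subunits lie mostly above 0 for TBI minus Sham, below 0 for Hand Acu minus TBI and around 0 for Hand Acu minus Sham.

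Seen over all 3 arrays at once, the TBI array was the highest for 27 of 40 members (18 of 27 large and 9 of 13 small), beside 33.4% of all genes and 43.7% of the brightest 10%. The Sham array was highest for 10 members, beside 34.3% of all genes, and the Hand Acu array for 3 (Rpl21, Rpl22 and Rps28), beside 32.3%. Only Rpl35 was lowest on the TBI array, beside 31.7% of all genes. The subunit medians, large minus small, were -0.02, 0.0074 and -0.0032 apart in the 3 comparisons, and the interquartile ranges of the subunits overlapped in each.

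At the brightest signals, genes of other kinds mostly went the same way as the ribosomal protein genes in the comparisons with TBI. Of the 40 members, 20 had a mean log2 signal of at least 13. For TBI minus Sham their median was 0.09, with 16 higher, and the 141 other genes of that signal had a median of 0.07, with 14.9% lower. For Hand Acu minus TBI the 20 members had a median of -0.07, with 19 lower, and the other genes of -0.05, with 80.9% lower. Between 12 and 13, the 18 members had medians of 0.03 and -0.04 in these comparisons, and 467 other genes had 0.04 and -0.01. In this band 6 of 18 members were lower for TBI minus Sham, beside 168 of 467 other genes, and 15 of 18 for Hand Acu minus TBI, beside 274 of 467. For Hand Acu minus Sham the order was different: other genes had a median of 0.02 at 13 and above and 0.03 between 12 and 13, and the members of -0.01 and -0.03. Below a signal of 12 only Rps27l and Rpl39 lie, too few members to set against other genes of that signal.

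**Figure D3:**
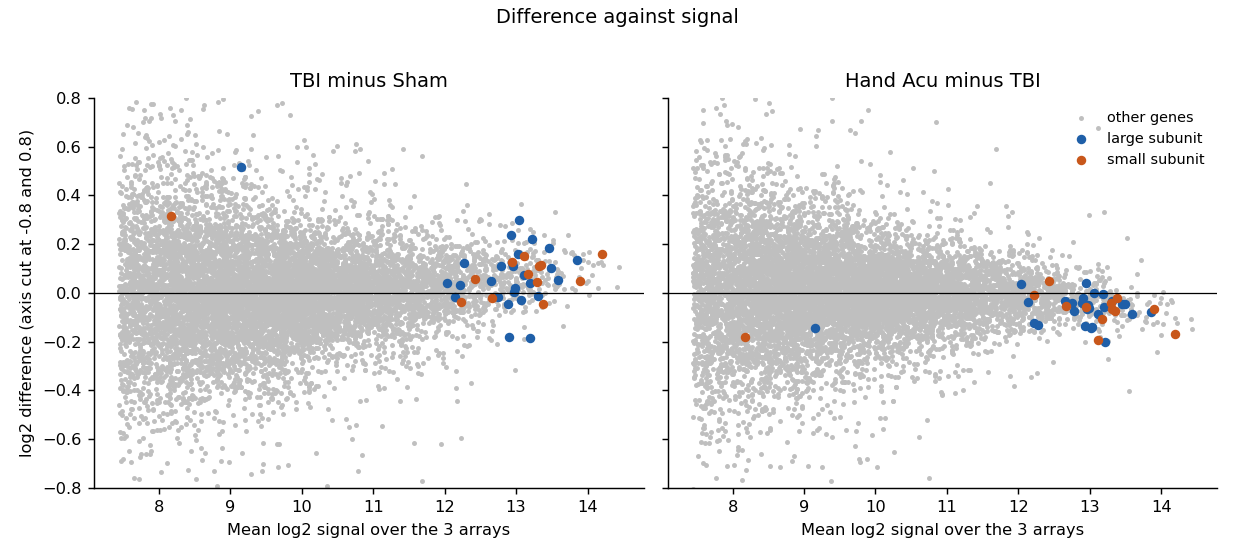
The log2 difference of each gene (left, TBI minus Sham; right, Hand Acu minus TBI) is plotted against its mean log2 signal, with ribosomal protein genes in blue (large) and orange (small) over all genes above the floor in grey; the vertical axis is cut at -0.8 and 0.8. At a signal of 13 and above the grey cloud itself lies above 0 on the left and below 0 on the right.

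Other measures also moved between the arrays. The red cell genes Hbb and Alas2, the 2 of 6 listed red cell markers read here, had a summed signal of 11480 on the Sham, 14424 on the TBI and 10944 on the Hand Acu array, highest on the TBI array like most ribosomal protein genes. Summed markers of microglia, astrocytes, oligodendrocytes and neurons were also highest there. They were 3825, 4385 and 3797 for 5 microglia markers, although Aif1 and Csf1r among these were not highest there, and 18083, 20021 and 18370 for 4 astrocyte markers. They were 35643, 38287 and 36203 for 3 oligodendrocyte markers and 26872, 27783 and 27552 for 4 neuron markers. A sum follows its brightest genes, and single markers differed. The astrocyte genes Aldh1l1 and Slc1a2, the oligodendrocyte gene Mog and the neuron genes Rbfox3 and Syt1 were not highest on TBI. The astrocyte median for TBI minus Sham was -0.03, with 2 of 4 higher. Summed markers of endothelium and cerebellum were instead highest on Sham. RNA integrity was read from beta-actin, whose 3' over 5' signal ratio was 5.58, 6.37 and 6.69 in that order, and from Gapdh, whose ratio was lowest on TBI, with 1.25 on Sham and 1.28 on Hand Acu. Their part in the differences was not tested. In bulk tissue fewer cells of a type and less RNA per cell cannot be told apart.

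Further probe sets gave a partial check. Of the members, 5 had more than 1 probe set, with 5 further probe sets past the floor. Of these, 3 had the direction of the one used for TBI minus Sham, 4 for Hand Acu minus TBI and 3 for Hand Acu minus Sham. The widest gaps were in Rpl3, a protein of the peptidyl transferase centre, and in Rpl7. For TBI minus Sham, the brightest Rpl3 probe set differed by -0.01 and its dim second, a set marked as open to cross-hybridisation, by 0.91. For Rpl7 these values were 0.02 and 0.86, the second probe set reading 9.37 on Sham, 10.23 on TBI and 10.16 on Hand Acu. The second Rpl3 probe set read 7.39, 8.29 and 6.72 in that order, so only its TBI value lay above the floor of 7.44. It is still counted as sharing the direction for Hand Acu minus TBI, where it differed by -1.57, and for Hand Acu minus Sham. A further Rpsa probe set, also marked as open to cross-hybridisation, read 10.19, 10.48 and 10.51 on the Sham, TBI and Hand Acu arrays. It was opposite to the Rpsa set used in every comparison, at 0.29 for TBI minus Sham and 0.32 for Hand Acu minus Sham. The remaining Rpsa probe set had the direction of the one used. Another 30 probe sets list several symbols, all of ribosomal protein genes or their pseudogenes, so no gene is named from them. Of the 29 above the floor, 25 were higher for TBI minus Sham (median 0.07), 21 lower for Hand Acu minus TBI (median -0.04) and 21 higher for Hand Acu minus Sham (median 0.04). The last differs in sign from the members' median. Most of these probe sets read above 12, where other genes mostly went the same way in the comparisons with TBI. Of other genes at 13 and above, 14.9% were lower for TBI minus Sham and 80.9% for Hand Acu minus TBI. Between 12 and 13, 168 of 467 and 274 of 467 were lower in these comparisons. The counts in the comparisons with TBI therefore do not set these probe sets apart from other bright genes. The many processed copies of ribosomal protein genes in the rat genome mean that any of these probe sets may read more than 1 transcript.

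The 4 members below the floor were Rpl28, Rpl30, Rpl3l and Rps13. Rpl3l, the paralog of Rpl3 known from heart and skeletal muscle, read 4.83 on Sham, 3.45 on TBI and 4.99 on Hand Acu. Rpl30 read 3.74, 4.88 and 5.64, Rps13 6.27, 6.13 and 5.63, and Rpl28 6.08, 6.29 and 6.12. Differences this close to background are erratic and are not read further. Rpl30 and Rps13 also stand in the entries of probe sets with several symbols, so their single-symbol probe sets need not read their main transcript. Of the paralogs outside the rule, Rpl7l1 was above the floor and differed by 0.14 for TBI minus Sham and -0.06 for Hand Acu minus TBI, while Rpl26l1 and Rps4y2 were below it.

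By place in the ribosome, the 5 head proteins of the small subunit read here (Rps3, Rps15, Rps16, Rps28 and Rps29) were all higher on the TBI than on the Sham array, with a median of 0.13, and 4 of 5 were lower on the Hand Acu than on the TBI array (median -0.11). These counts, and those of the anaemia genes and of the pyrimidine-run groups below, are read against all members and other genes. In the same comparisons 30 of 40 members were higher and 36 of 40 lower, beside 51.0% and 50.7% of all genes. Of other genes at 13 and above, 14.9% and 80.9% were lower. The 5 proteins around the tunnel exit (Rpl19, Rpl23a, Rpl26, Rpl35 and Rpl39) went both ways for TBI minus Sham, from -0.18 to 0.52. Of 11 genes known from Diamond-Blackfan anaemia, a failure of red cell production caused by loss of 1 copy of a ribosomal protein gene, 8 were higher for TBI minus Sham (median 0.11) and 9 lower for Hand Acu minus TBI (median -0.05). Members with the pyrimidine run and those without it were then set side by side. The group without it is not free of pyrimidine tracts. It holds Rps3a, which starts with C and 4 further pyrimidines, and Rpl5, whose run touches the edge of the window. Of 18 above the floor with it, 15 were higher for TBI minus Sham (median 0.06), and of 18 without it 12 (median 0.08). For Hand Acu minus TBI both medians were -0.06.

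The genes that build and serve the ribosome were described in the same way. The SD over genes for TBI minus Sham was 0.18 for assembly factors, 0.13 for the members, 0.09 for elongation and release factors and 0.20 for all genes above the floor. These lists differ in signal, as most assembly factors read below 11 and most members above 12. By signal alone, the SD of genes other than members was 0.26 from the floor to 9 and 0.18 from 9 to 11. It was 0.12 from 12 to 13 and 0.09 at 13 and above. Ribosome assembly factors had a median of 0.02 for TBI minus Sham (30 of 56 higher) and -0.02 for Hand Acu minus TBI (31 of 56 lower). Among them, Rrp1b differed by -0.57 and Noc4l by -0.39 for TBI minus Sham, and Utp11, a factor of small-subunit processing, read 7.79, 8.12 and 8.94 on the Sham, TBI and Hand Acu arrays. RNA polymerase I and its factors, which make the ribosomal RNA, had medians of 0.03 and -0.04 in the same order (10 of 17 higher, 9 of 17 lower), with its factor gene Taf1b at 0.58 and Taf1c at -0.57 for TBI minus Sham. Mitochondrial ribosomal protein genes, which serve a separate ribosome, had medians of 0.04 (46 of 73 higher) and -0.01 (38 of 73 lower).

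Elongation and release factors, several of which are TOP mRNAs, had medians of 0.05 (9 of 14 higher) and -0.06 (10 of 14 lower). Eef1a1, which brings aminoacyl-tRNA to the ribosome, differed by 0.02 and -0.10, and Eef1b2, its exchange factor, by 0.12 and -0.16. The largest differences of the list were those of Pelo at 0.20 for TBI minus Sham and Hbs1l at -0.29 for Hand Acu minus TBI. Eef1a2 (-0.05 and 0.06), Eif5a2 (-0.08 and 0.03) and Abce1 (-0.09 and 0.01) went the other way in both comparisons. Proteins that sit on the ribosome had medians of 0.08 (6 of 8 higher) and -0.05 (5 of 8 lower), with Naca, the chaperone of emerging chains, at 0.12 and -0.14. The largest differences there were those of Dnajc2 at 0.28 for TBI minus Sham and Srp54a at 0.24 for Hand Acu minus TBI. Genes of mTORC1 and of TOP regulation had medians of -0.0014 (7 of 14 higher) and -0.07 (10 of 14 lower). Larp1, the repressor of TOP mRNAs, read 11.28, 11.27 and 10.92 on the Sham, TBI and Hand Acu arrays and differed by -0.34 for Hand Acu minus TBI. Pdcd4, an inhibitor of the initiation helicase, read 11.07, 11.29 and 11.47.

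**Figure D4:**
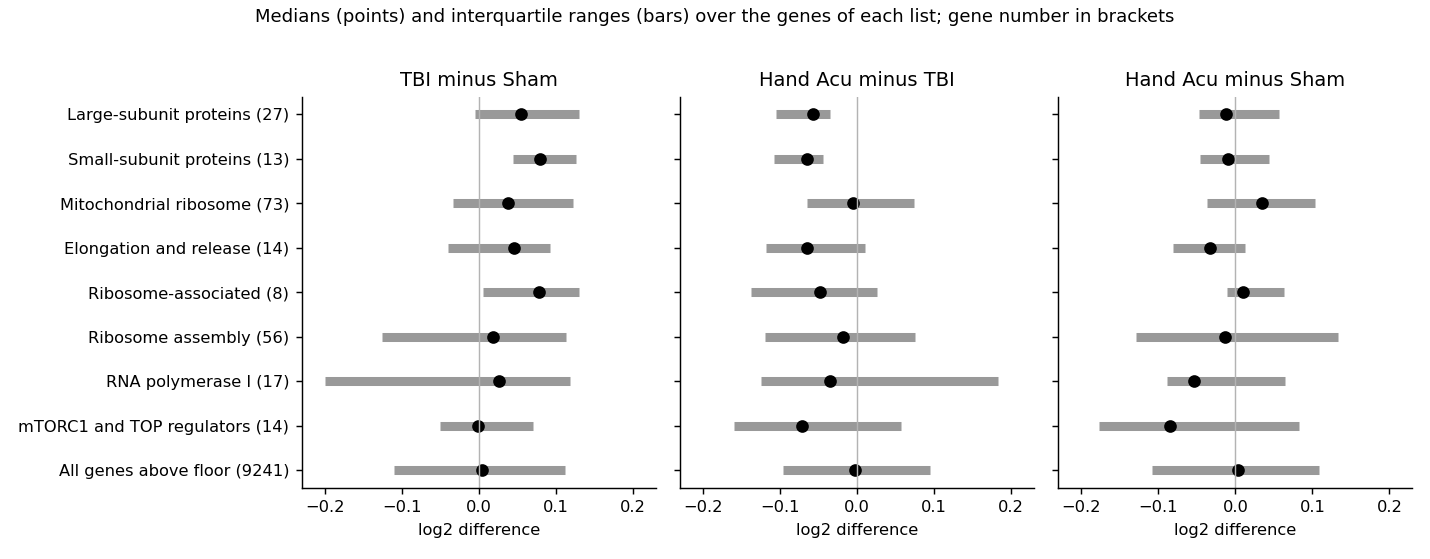
For each list, the point is the median log2 difference and the bar is the interquartile range of its genes, with the number of genes above the floor in brackets. For TBI minus Sham the small-subunit bar lies above 0 and the large-subunit bar runs from -0.005 to 0.13. Both lie below 0 for Hand Acu minus TBI. The bar of ribosome-associated proteins also lies above 0 for TBI minus Sham, from 0.0056 to 0.13, but spans 0 for Hand Acu minus TBI. The bars of assembly and RNA polymerase I genes span 0, as does that of all genes. The lists differ in signal, and differences are wider at low signal.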

How the data were processed

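The authors deposited 1 log2 signal per probe set and array for 31099 probe sets. MAS5, Affymetrix's summary of perfect-match and mismatch probes, comes from the submitters' processing notes, which give no version. The log base and scaling were read from the deposited values: raised to the power of 2, their mean was 500.0 on each array once 2% was trimmed off either end. Median signal was 174.7, 174.1 and 174.2 on the Sham, TBI and Hand Acu arrays. Per the labels, 6 µg of RNA was labelled. Detection calls were not used here.

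Gene symbols came from a platform annotation of 2016, and only those with a single symbol were used. The number of arrays limits the precision, and signals of different probe sets were not compared as levels. Differences are between deposited log2 values, with no test. Called means past 1.2-fold or 1.5-fold. The members, lists, rule for named genes and alternatives were chosen with earlier results of these data known. In each comparison, the named genes were the 3 highest and 3 lowest of each subunit, the members of small groups (stalk, 5S complex, paralogs) and the brightest and dimmest members; others were named after their values were seen. Python 3.11.15, numpy 2.4.6 and pandas 2.3.3 were used, and the steps were tested on simulated data.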

Additional observations from a re-analysis of the deposited data

How the results depend on the processing

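For each comparison, the 2 subunit medians, their gap and the number of members higher were recomputed with quantile normalization, centring, an offset of 50, the mean of all probe sets, no probe sets marked as shared, probe sets in place of genes, no floor, the brightest 10% of genes, no paralogs and each member left out, and, chosen after seeing the data, with quantile normalization within the brightest 10% and with probe sets of several symbols added. Of 156 values, 149 stayed in range: the 95% order-statistic interval for a subunit median, and 1.5 times either way for a count. For the gap it was a band centred on the gap, as wide as the wider subunit interval. No median whose interval lay apart from 0 changed sign. The intervals run over genes, hold no replicate error and are wide, and leaving out a member moves a median little. For TBI minus Sham, quantile normalization took the medians from 0.0543 to 0.0129 (large) and from 0.079 to 0.0163 (small). Both counted as within range. For Hand Acu minus TBI, the large-subunit median was -0.0209 with quantile normalization and -0.0195 with quantile normalization within the brightest 10%, and 10 members were higher under both, against 4 as deposited. Limiting the deposited values to the brightest 10% alone left that median at -0.05 with 4 higher. Adding probe sets of several symbols gave 54 of 68 higher for TBI minus Sham, 12 for Hand Acu minus TBI and 39 for Hand Acu minus Sham. With quantile normalization within the brightest 10% 20 of 38 members were higher for TBI minus Sham. Leaving out each member moved the large-subunit median between 0.05 and 0.06 for TBI minus Sham and between -0.06 and -0.05 for Hand Acu minus TBI. For Hand Acu minus Sham the large-subunit median lay between -0.01 and 0.0012 with a member left out, and both subunit medians were above 0 with probe sets of several symbols added (0.01 and 0.03), so that comparison has no settled sign. The cause of the changes under quantile normalization was not tested. No paired analysis was possible because each group has 1 array.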
